A study of Homo sapiens with 2 samples.

Results

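Tight junctions are the belts of membrane contact that seal the space between neighbouring epithelial cells. Claudins are the membrane proteins that form their strands: some, such as claudin-1, claudin-3 and claudin-4, are known to tighten the seal, whereas claudin-2 forms a channel for cations and water. Occludin is a further strand protein, and the zonula occludens (ZO) scaffolds, encoded by the TJP genes, bind claudin and occludin tails and tie them to actin. In the lung this barrier lines the airways and alveoli, and its members are often altered in carcinomas.

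Transcript levels of 9 of these genes, CLDN1, CLDN2, CLDN3, CLDN4, CLDN7, CLDN12, OCLN, TJP1 and TJP3, were examined among 18786 gene symbols with a value in both libraries of the series. They form a named list, matched by gene symbol and joined by gene identifier, and all 9 had a value in both libraries. The libraries were made from A549, a human cell line established from a lung adenocarcinoma. In 1 of them the cells stably carried an empty retroviral vector, and in the other a retrovirus with ATOH8, a gene for a basic helix-loop-helix transcription factor. Both cultures had therefore been retrovirally transduced, and whether each was a pool or a clone is not given in the sources used here. Each group held 1 library, so no value below has a replicate error and no test was run between the groups. The ATOH8 transcript itself stood at 0.786 FPKM with the vector and at 182 FPKM with ATOH8.

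Levels are given in FPKM, fragments scaled to transcript length and to library size, which allows genes of different length to be set side by side. The files listed 20966 genes for the vector and 20870 for the ATOH8 library, and the read depth is not given in the sources used here. The folds are log2(ATOH8 + 1) minus log2(vector + 1), which understates differences of low genes. They are given relative to the median gene, whose log2 fold was -0.36 over genes that averaged 5 FPKM or more. The 12342 genes that averaged 1 FPKM or more are called the tested genes. Of 6 epithelial markers, 5 reached 1 FPKM in each library, with summed levels of 5849 and 5840 FPKM in the vector and ATOH8 libraries, so the labelled epithelial origin was borne out by KRT7, KRT8 and KRT18. The sums came almost wholly from these keratins, so they do not show the levels of the other markers. In the vector and ATOH8 libraries EPCAM was at 1.70 and 2.23 FPKM and CDH1 at 15.4 and 54.1 FPKM. KRT19 was below 1 FPKM in both. Of 9 alveolar markers only ABCA3 reached 1 FPKM in either library, and no surfactant protein gene did. Of 10 markers of fibroblasts, endothelium and blood, only CD68, a lysosomal protein that is not restricted to macrophages, reached 1 FPKM (2.14 and 15.4 FPKM).

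The 9 genes split into 2 sets. CLDN2, CLDN4, CLDN7 and TJP3 were higher with ATOH8 than with the vector by 2-fold or more, relative to the median gene. The other 5 lay within 2-fold of the median gene, and 0 were lower by 2-fold. Among the tested genes 12.8% were higher and 9.46% lower by this rule, and among all genes with a value in both libraries the shares were 9.51% and 6.22%. The median log2 fold of the 9 was 0.18, the value of CLDN3, and that of the tested genes was 0.06. The sign of the median turned under 6 other settings, at -0.46 to -0.084. The value of -0.46 came from a filter at a mean FPKM of 5, which kept only 5 of the 9 genes. The lowest value with all 9 genes was -0.25, with TPM scaling. The median of the 9 hides the split, because no member lay between 0.18 and 1.37. Of the 9, 8 averaged 1 FPKM or more and were among the tested genes. CLDN4 and CLDN7 reached it only through the ATOH8 library, and CLDN3 did not reach it. In bulk RNA, a change in the share of cells with a transcript and a change in RNA per cell cannot be told apart.

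**Figure D1:**
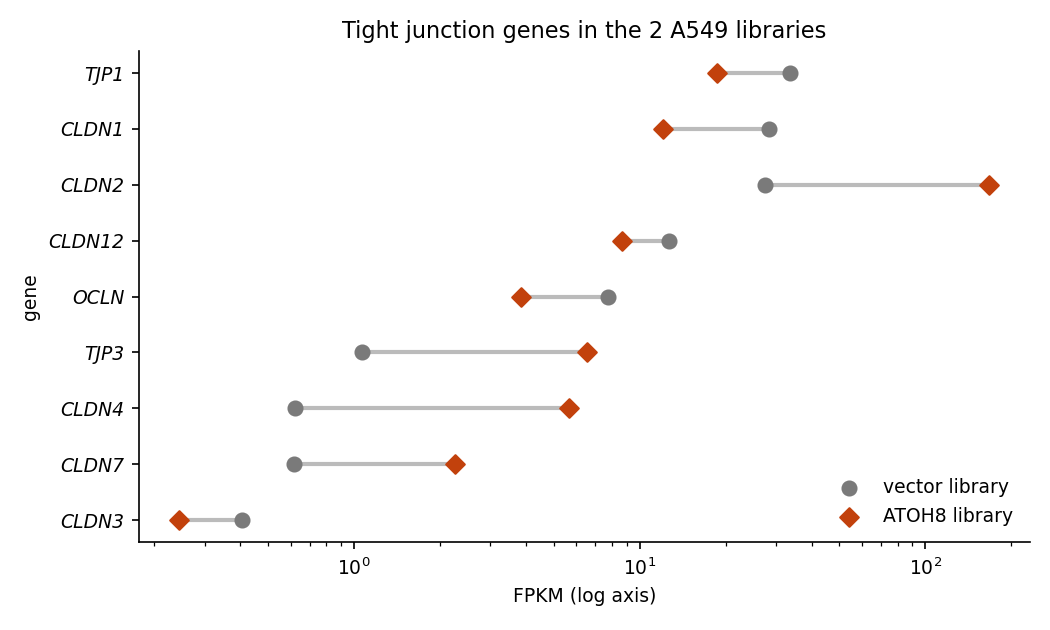
FPKM of each of the 9 genes on a log axis, with a grey circle for the vector library, an orange diamond for the ATOH8 library and a bar joining them. CLDN2, CLDN4, CLDN7 and TJP3 move to the right, and the other 5 genes move to the left.

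CLDN2 had the highest level of the claudins in the ATOH8 library and, with the pseudocount of 1, the largest fold. The gene (ENSG00000165376, protein-coding, chromosome X, 106900164 to 106930861, plus strand, GRCh38) stood at 27.4 FPKM with the vector and at 168 FPKM with ATOH8, a ratio of 6.12. Its log2 fold was 2.93 relative to the median gene, above that of 99.7% of the tested genes. It ranked 2819th of all listed genes in the vector library and 311th in the ATOH8 library. It was marked up in the authors' deposited table (q = 0.000176), a value that compares these 2 libraries and not the conditions. The locus given for CLDN2 also spans MORC4, RIPPLY1 and TBC1D8B, between which reads could have been split. MORC4 was at 51.8 and 24.5 FPKM (log2 fold -0.69) and TBC1D8B at 1.57 and 1.25 FPKM (0.16). Whether reads were split between these genes and CLDN2 was not tested.

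CLDN4 and CLDN7, both genes of barrier-forming claudins common in glandular epithelia, were low in the vector library. CLDN4 (ENSG00000189143, chromosome 7, 73799542 to 73832693, plus strand) was at 0.621 FPKM with the vector and at 5.64 FPKM with ATOH8, a ratio of 9.08 and a log2 fold of 2.39. The ratio was the largest of the 9 genes, whereas the fold with its pseudocount was below that of CLDN2. CLDN7 (ENSG00000181885, chromosome 17, 7259903 to 7263983, minus strand) was at 0.616 and 2.26 FPKM, with a log2 fold of 1.37. That value was the least secure of the 4: it was 0.65 with a pseudocount of 5 and 0.84 after a correction for GC content. The locus of CLDN7 also spans CTDNEP1, ELP5 and GABARAP, with log2 folds of 0.21, -0.45 and 0.32. CLDN4 (q = 0.000893) and CLDN7 (q = 0.0119) were both marked up in the authors' deposited table.

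CLDN3, a barrier-forming claudin gene (ENSG00000165215, chromosome 7, 73768997 to 73770270, minus strand), lies next to CLDN4 in the genome. The RefSeq start sites of the pair are 60726 bases apart and point away from each other. That start of CLDN4 (73830996) lies inside the gene span given above, so the spans themselves are closer together. CLDN3 was at 0.406 FPKM with the vector and at 0.244 FPKM with ATOH8. Its direction depended on the scaling, with log2 folds of 0.18 relative to the median gene, -0.18 with the FPKM as deposited and -0.54 after the GC correction. CLDN4 exceeded CLDN3 by a factor of 1.53 in the vector library and of 23.1 in the ATOH8 library.

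CLDN1 and CLDN12 did not share the direction of CLDN2. CLDN1 (ENSG00000163347, chromosome 3, 190305701 to 190322475, minus strand), whose product is a main sealing claudin of skin and other epithelia, was at 28.4 FPKM with the vector and at 12.1 FPKM with ATOH8. The vector level was 2.35 times the ATOH8 level, the lowest log2 fold of the 9 genes (-0.81 relative to the median gene, -1.17 with the FPKM as deposited and -0.40 after the GC correction). CLDN12 (ENSG00000157224, chromosome 7, 90383721 to 90513402, plus strand), a claudin gene with a broad tissue distribution, was at 12.6 and 8.65 FPKM. Its log2 fold was -0.14 and changed sign to 0.49 after the GC correction. The locus given for CLDN12 also spans GTPBP10 (6.13 and 2.75 FPKM, log2 fold -0.57) and CDK14 (0.0248 and 0.263 FPKM), between which reads could have been split. Neither gene was in the authors' deposited table.

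**Figure D2:**
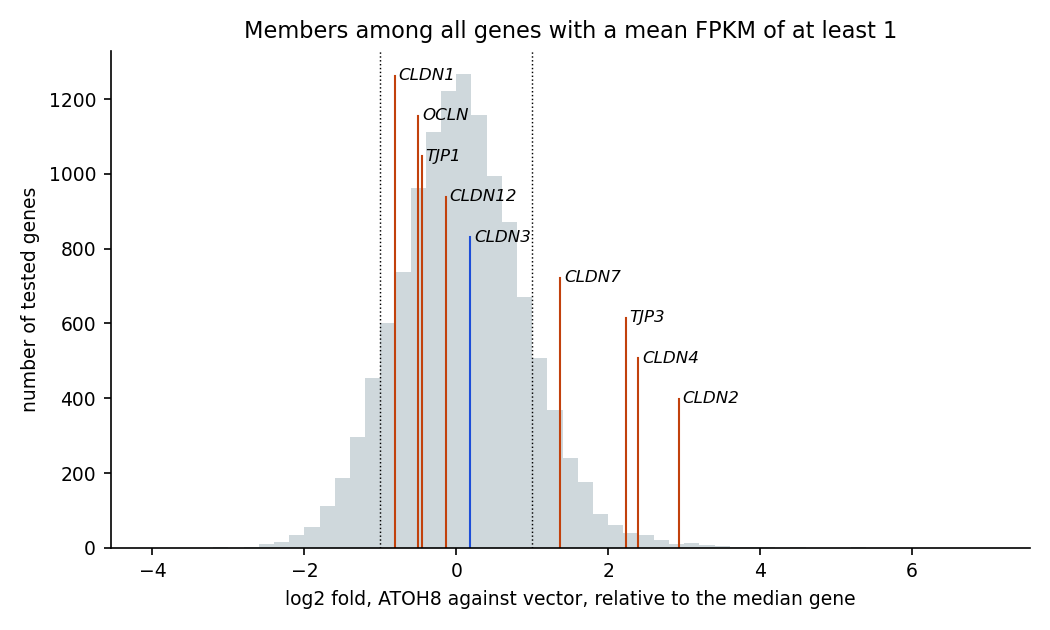
Histogram of the log2 fold relative to the median gene over the 12342 tested genes, with a line for each of the 9 genes (blue for CLDN3, which had a mean below 1 FPKM) and dotted lines at 2-fold. The heights of the lines serve only to separate the names. CLDN2, CLDN4, TJP3 and CLDN7 lie to the right of the upper dotted line, and the other 5 lie between the dotted lines.

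The balance among claudins therefore differed between the libraries. CLDN1 and CLDN2 were nearly equal in the vector library, with a CLDN2 to CLDN1 ratio of 0.965, and the ratio was 13.9 in the ATOH8 library. Such ratios within a library do not depend on how the libraries are scaled. Of 23 claudin genes looked for, 15 were listed in each library, and those at 1 FPKM or more numbered 5 in the vector and 7 in the ATOH8 library. The summed claudin level was 78.5 FPKM with the vector and at 204 FPKM with ATOH8. Without CLDN2 the sums were 51.1 and 36.5 FPKM, so CLDN2 alone accounted for the higher total. CLDN1 made up 36.2%, CLDN2 34.9% and CLDN12 16.1% of the vector sum. In the ATOH8 library CLDN2 made up 82.1%, CLDN1 5.92%, CLDN12 4.24% and CLDN4 2.76%. In order of level, the members ran CLDN1, CLDN2, CLDN12, CLDN4, CLDN7 and CLDN3 in the vector library and CLDN2, CLDN1, CLDN12, CLDN4, CLDN7 and CLDN3 in the ATOH8 library. CLDN1 and CLDN2 thus changed places, and without replicates the near-equal neighbours (CLDN1 and CLDN2, or CLDN4 and CLDN7, in the vector library) cannot be ordered beyond these single values.

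OCLN, which encodes occludin (ENSG00000197822, chromosome 5, 69492292 to 69558104, plus strand), was at 7.77 FPKM with the vector and at 3.83 FPKM with ATOH8. Its log2 fold was -0.50 relative to the median gene and -0.86 with the FPKM as deposited, and 0.024 after the GC correction. The strand protein gene OCLN was thus on the lower side under the scalings and on the median after the correction. OCLN has a nearby pseudogene copy, OCLNP1, so its reads could have been split and its value is uncertain.

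The scaffolds divided as the claudins did. TJP1, which encodes ZO-1, the ubiquitous scaffold (ENSG00000104067, chromosome 15, 29699367 to 29968865, minus strand), was at 33.7 FPKM with the vector and at 18.7 FPKM with ATOH8, with a log2 fold of -0.46. TJP3, which encodes ZO-3, a scaffold largely confined to epithelia (ENSG00000105289, chromosome 19, 3708109 to 3750813, plus strand), was at 1.07 and 6.56 FPKM, with a ratio of 6.16 and a log2 fold of 2.23. TJP3 was marked up in the authors' deposited table (q = 5.96e-10, the lowest among the 9 genes), which did not hold TJP1. TJP1 exceeded TJP3 by a factor of 31.6 in the vector library and of 2.85 in the ATOH8 library. Of the summed level of these 2 scaffold genes, TJP3 made up 3.07% in the vector and 26.0% in the ATOH8 library.

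**Figure D3:**
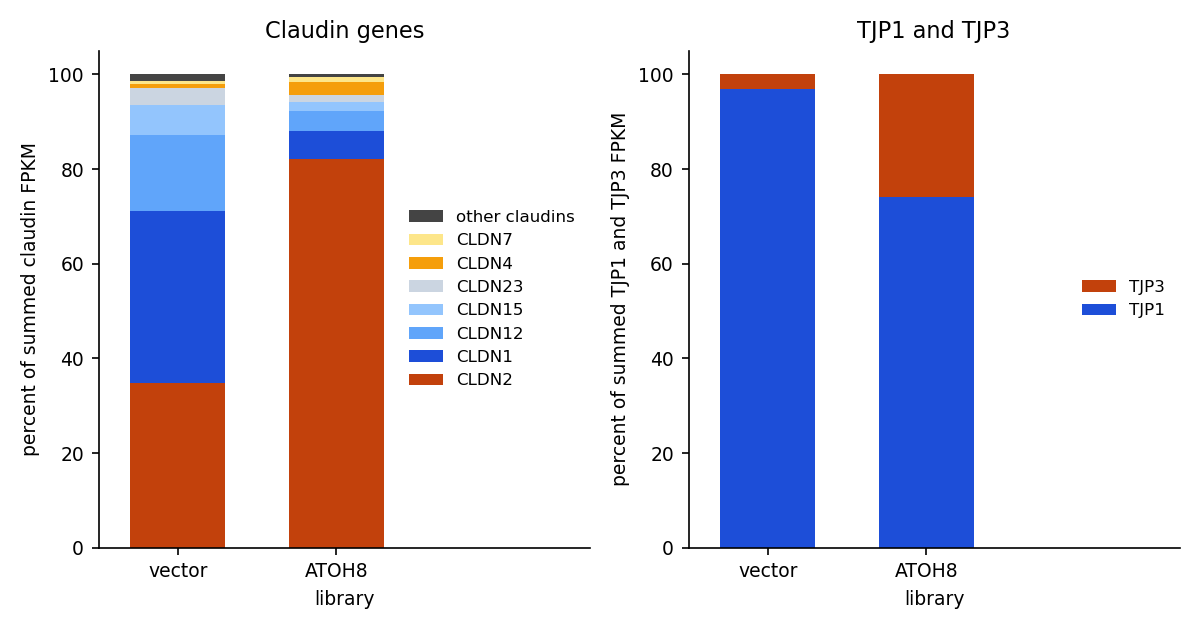
Stacked bars from 0 to 100 percent of the summed FPKM in each library, for all listed claudins (left) and for TJP1 and TJP3 (right). CLDN2 takes 34.9% of the claudin bar in the vector and 82.1% in the ATOH8 library, and TJP3 takes 3.07% and 26.0% of the scaffold bar.

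The split of the 9 genes ran along with base composition. Across 12313 tested genes with a known transcript, the median log2 fold relative to the median gene was -0.70 for the most AT-rich decile and 0.63 for the most GC-rich decile. The longest transcripts of CLDN2, CLDN4, CLDN7 and TJP3 had GC contents of 52.6%, 57.5%, 59.6% and 63.2%, and those of CLDN12, OCLN, CLDN1 and TJP1 had 38.1%, 39.9%, 41.5% and 44.8%. CLDN3, at 69.2%, was GC-rich and was not higher. After subtraction of the trend, the log2 folds were 2.63 for CLDN2, 1.93 for CLDN4, 1.62 for TJP3 and 0.84 for CLDN7, so 3 of the 9 stayed 2-fold or more above the baseline and 0 were 2-fold or more below it. By the same correction 8.33% of the tested genes were above and 5.95% below by that size. The difference in log2 fold between CLDN2 and CLDN1 was 3.74 before and 3.03 after the correction, and that between TJP3 and TJP1 was 2.69 and 1.96.

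**Figure D4:**
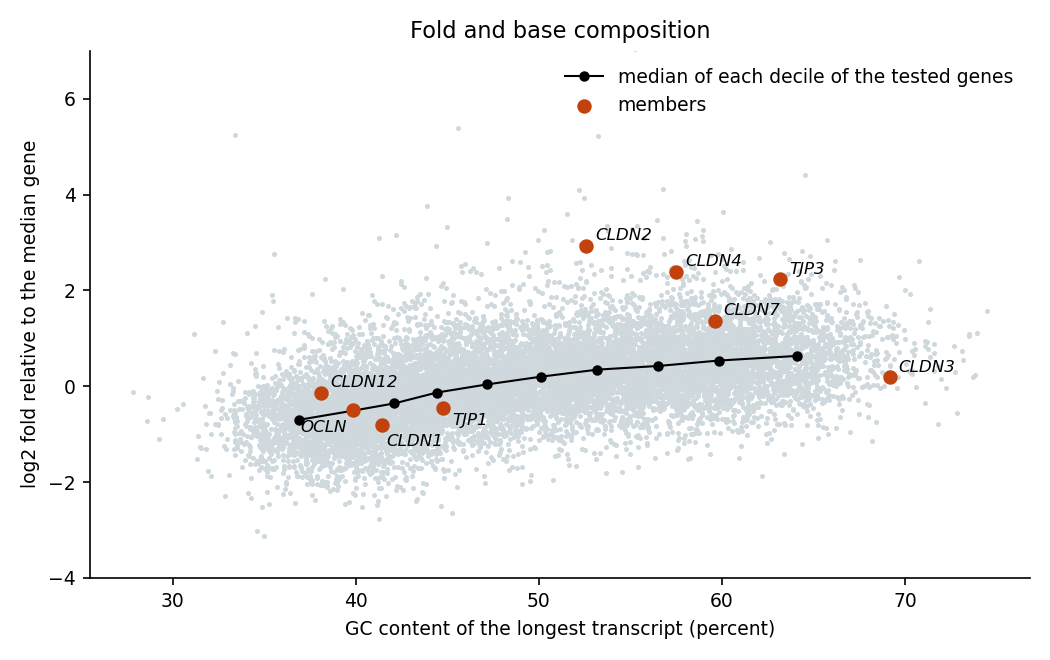
Log2 fold relative to the median gene against GC content of the longest transcript for the tested genes (grey), with the median of each decile of the genes (black) and the 9 genes (orange). CLDN2, CLDN4 and TJP3 lie well above the black line, CLDN12 slightly above it, CLDN1 below it, and CLDN3 below its right end.

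In the authors' deposited table, 4 of the 9 genes (CLDN2, CLDN4, CLDN7 and TJP3) were marked up and 0 down. Of the tested genes, 5.16% were marked up and 14.7% down there. The table rests on the same FPKM, so its direction adds no independent evidence.

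Basic helix-loop-helix proteins such as ATOH8 bind E-boxes, short sites of the form CANNTG, and Snail and ZEB repressors bind the form CACCTG. For this reason the 250 bases before each annotated gene start were searched on both strands for CANNTG and for the forms CAGCTG and CACCTG that it includes. The windows came from RefSeq (GRCh38.p14), which gave 16 starts for the 9 genes. CANNTG occurred in 8 of the 16 windows, against 61.8% of 34943 windows of all genes. CAGCTG occurred in 0 of the 16, against 14.0% of all windows, and CACCTG or its reverse complement in 5 of the 16, against 17.5%. At least 1 window held CANNTG for 3 of the 4 higher genes (CLDN2, CLDN7 and TJP3, not CLDN4) and for 2 of the other 5 (OCLN and TJP1). CLDN2, CLDN7, OCLN and TJP3 had 2 windows each and TJP1 had 4, whereas CLDN1, CLDN3, CLDN4 and CLDN12 had 1 each. A count by gene thus ran along with the number of windows searched, and no share by gene over all genes was computed. The windows of CLDN1, CLDN3, CLDN4 and CLDN12 held none, which says only that these letters are not in these bases. The RefSeq starts of CLDN4 (73830996) and CLDN12 (90403461) lie inside the gene spans given above, so the bases before those spans were not searched. All windows of CLDN7, OCLN and TJP3 lie inside the spans of these genes too, so the bases before them were likewise not searched. All 250 bases of the CLDN4 window are annotated as CLDN4 exon. The same holds for 1 window each of CLDN7, OCLN and TJP3, by exons of the gene itself. Those windows held 4 CANNTG sites for CLDN7, 3 for TJP3 and 1 for OCLN.

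The 5 windows that hold no annotated exon are shown, from 2 of the higher genes and 2 that were not higher. They are the second start of CLDN2 (chrX:106918110-106918359, plus strand), the upstream start of CLDN7 (chr17:7263214-7263463, minus strand), the start of CLDN3 (chr7:73770271-73770520, minus strand), and the innermost (chr15:29820675-29820924, minus strand) and outermost (chr15:29969050-29969299, minus strand) starts of TJP1. The bases just after the outermost TJP1 start were in no GENCODE transcript of the gene, whereas those of the other 15 starts were. Each runs 5′ to 3′ in the direction of its gene and ends at the base before the start, and capitals mark CANNTG.
CLDN2: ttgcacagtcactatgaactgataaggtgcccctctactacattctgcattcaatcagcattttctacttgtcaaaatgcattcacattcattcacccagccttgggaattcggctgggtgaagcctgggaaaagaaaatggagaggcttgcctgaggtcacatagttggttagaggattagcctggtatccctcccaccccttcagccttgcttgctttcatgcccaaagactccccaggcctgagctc
CLDN7: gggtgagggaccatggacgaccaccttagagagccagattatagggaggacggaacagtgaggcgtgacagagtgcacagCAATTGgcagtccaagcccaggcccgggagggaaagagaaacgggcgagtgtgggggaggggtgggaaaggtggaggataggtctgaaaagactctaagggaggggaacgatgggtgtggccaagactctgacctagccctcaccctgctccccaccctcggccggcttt
CLDN3: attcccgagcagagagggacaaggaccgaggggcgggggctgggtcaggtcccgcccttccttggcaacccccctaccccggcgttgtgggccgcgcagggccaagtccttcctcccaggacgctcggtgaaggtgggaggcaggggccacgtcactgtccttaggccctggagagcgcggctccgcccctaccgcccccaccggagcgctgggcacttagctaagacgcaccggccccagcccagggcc
TJP1, innermost: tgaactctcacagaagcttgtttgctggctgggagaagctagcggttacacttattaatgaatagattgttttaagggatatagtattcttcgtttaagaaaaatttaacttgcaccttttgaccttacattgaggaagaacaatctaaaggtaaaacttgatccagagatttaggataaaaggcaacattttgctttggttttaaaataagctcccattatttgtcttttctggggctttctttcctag
TJP1, outermost: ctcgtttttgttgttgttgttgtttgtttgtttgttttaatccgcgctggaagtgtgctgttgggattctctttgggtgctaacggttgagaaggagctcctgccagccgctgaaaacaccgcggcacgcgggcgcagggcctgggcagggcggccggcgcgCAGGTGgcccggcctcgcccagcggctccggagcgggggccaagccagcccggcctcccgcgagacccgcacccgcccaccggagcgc
The CLDN2 window shown held no E-box. The window of its first start held CAACTG at 208 bases before that start. The CLDN7 window shown held CAATTG at 170 bases before the start, while the other CLDN7 window held 4 E-boxes, all CACCTG or its reverse complement. The outermost TJP1 window held CAGGTG at 88 bases before the start, and the innermost held none. The first window of TJP3 held 3 E-boxes and its second held 1. The 2 windows of OCLN each held 1 E-box of the form CAGGTG, at 33 and 133 bases before their own starts. E-boxes were thus present and absent among both the higher genes and the others.

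Other claudins, tight junction proteins, polarity genes and regulators were taken from 5 lists of 72 genes in all. Of the 44 tested, 10 were higher (22.7%, against 12.8% of all tested genes) and 3 lower (6.82%, against 9.46%) by 2-fold or more. Regulators, such as transcription factors and kinases, were 13 of the 44, 4 of the 10 higher and 2 of the 3 lower genes. The median log2 fold of the 44 was 0.41, against 0.06 over all tested genes. Without centring on the median gene the counts were 6 higher (13.6%, against 6.24% of all tested genes) and 3 lower (6.82%, against 19.0%). The GC correction gave 8 higher (18.2%, against 8.33%) and 0 lower (against 5.95%). Among the higher genes, AMOT averaged 1 FPKM only through the ATOH8 library. Of the 72 genes, the authors' deposited table had 6 marked up, including MARVELD3, which was not a tested gene, and 2 marked down. Of all tested genes 5.16% were marked up and 14.7% down, which is a share of tested genes, whereas the 72 include genes that were not tested.

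Among the other membrane proteins of the junction, 2 of 6 tested genes were higher by 2-fold or more (33.3%, against 12.8% of all tested genes) and 0 were lower. F11R, which encodes the junctional adhesion molecule JAM-A, was at 8.32 and 26.0 FPKM in the vector and ATOH8 libraries (1.90). LSR, which encodes angulin-1 of the contacts where cells meet at corners, was at 6.06 and 16.0 FPKM (1.63, and 0.99 after the GC correction). MARVELD2, which encodes tricellulin of the same contacts, was at 1.56 and 2.43 FPKM (0.78, and 1.005 after the GC correction), and JAM3, for JAM-C, at 6.998 and 3.49 FPKM (-0.48). Of 17 other claudin genes only CLDN15 (4.95 and 3.94 FPKM, 0.09) and CLDN23 (2.85 and 2.996 FPKM, 0.41) were tested, and both were within 2-fold of the median gene.

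Of 11 tested scaffolds and adaptors other than TJP1 and TJP3, 2 were higher by that rule (18.2%, against 12.8% of all tested genes) and 0 lower. AMOT, which encodes angiomotin, was at 0.236 and 1.83 FPKM (1.55) and was tested only because of its ATOH8 level. CGN, which encodes cingulin, a ZO-binding link to actin and microtubules, was at 2.42 and 4.88 FPKM (1.14, and 0.72 after the GC correction). PATJ, a Crumbs complex scaffold gene, stood at 0.60 and MPDZ, for the multi-PDZ scaffold MUPP1, at -0.61, with 7.89 and 3.54 FPKM.

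Of 12 polarity genes, 2 were higher (16.7%) and 1 lower (8.33%) by 2-fold or more, shares near the 12.8% and 9.46% of all tested genes. CRB3, a Crumbs gene of epithelia, was at 1.99 and 6.22 FPKM (1.63), and PRKCZ, an atypical protein kinase C gene, at 5.33 and 9.72 FPKM (1.12). LIN7C, an adaptor gene of the Crumbs complex, was at 8.87 and 2.45 FPKM (-1.16). PARD3, which encodes the PAR3 scaffold, was within 2-fold at 45.8 and 56.8 FPKM (0.66). After the GC correction CRB3 alone of these 4 was still 2-fold apart (1.07).

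Of 13 tested regulators, 4 were higher (30.8%) and 2 lower (15.4%) by 2-fold or more, against 12.8% and 9.46% of all tested genes. The higher ones were SNAI1, the repressor Snail (1.65 and 5.65 FPKM, 1.68), ELF3, an epithelial ETS factor (68.5 and 163 FPKM, 1.60), MYLK, a myosin light chain kinase gene (10.3 and 21.3 FPKM, 1.34), and ARHGEF18, an activator of RhoA at junctions (9.82 and 16.8 FPKM, 1.08). ROCK1 (8.02 and 2.26 FPKM, -1.11) and ROCK2 (12.0 and 3.98 FPKM, -1.03), the kinases downstream of RhoA, were the lower ones. SNAI1 was higher in the same library as CLDN2, CLDN4, CLDN7 and TJP3, and a link between SNAI1 and these genes was not tested. Of the other Snail and ZEB genes in the list, ZEB1 was at 3.33 and 1.55 FPKM (-0.41, and 0.20 after the GC correction). ZEB2 (0.701 and 0.375 FPKM) and SNAI2 (0.0172 and 0.232 FPKM) were below the filter. After the GC correction SNAI1, ELF3 and MYLK stayed at least 2-fold higher (1.19, 1.18 and 1.22), ARHGEF18 (0.54) did not, and ROCK1 (-0.63) and ROCK2 (-0.50) were within 2-fold. YBX3, for a Y-box factor that binds ZO-1, was within 2-fold before the correction (0.82) and beyond it after (1.41). CDH1, the E-cadherin gene of the adjacent adherens junction, was at 15.4 and 54.1 FPKM (2.11).

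**Figure D5:**
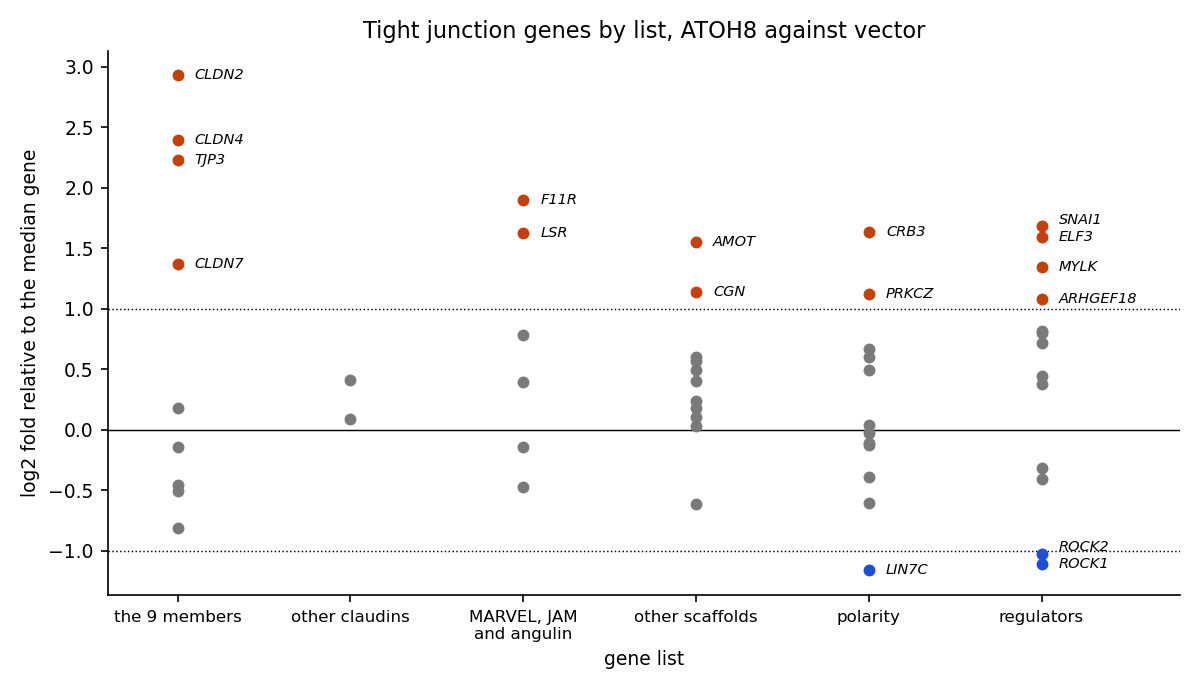
Log2 fold relative to the median gene for the 9 genes and for the tested genes of 5 other lists, with orange for genes at least 2-fold higher, blue for genes at least 2-fold lower and dotted lines at 2-fold. The 4 highest of the 9 genes span 1.37 to 2.93, and F11R at 1.90 is the highest gene of the other lists.

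The tested genes closest to CLDN2 in their 2 levels, by Euclidean distance in log2(FPKM + 1), were TGM2 (28.5 and 154 FPKM, distance 0.13), CDKN1A (32.0 and 194 FPKM, 0.30) and EEF1A2 (31.0 and 125 FPKM, 0.45). Those closest to CLDN1 were ZBED5 (28.5 and 12.1 FPKM, 0.0067), PPP3R1 (28.6 and 12.1 FPKM, 0.011) and CHRAC1 (28.6 and 12.4 FPKM, 0.031). With 2 libraries this is a likeness of 2 levels only.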

How the data were processed

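RNA sequencing libraries of A549 cells, 1 with an empty retroviral vector and 1 with ATOH8, were grouped by the treatment label. Total RNA was extracted with Trizol and prepared by Illumina protocols, per the labels. The submitters' processing notes name CASAVA, HISAT2, Cufflinks 2.2.1 and GRCh38. Not given in the sources used here are the annotation release, strand setting and depth, so overlapping genes could share reads. Per library, the authors deposited FPKM in 1 table as well as their own comparison, with log2 ratios, p-values and q-values, per the file headers. Its test is not stated there, and 2 of its columns of per-library values matched no label and were not used.

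Rows were matched on gene identifier, then summed where a symbol recurred. The log2 fold used a pseudocount of 1, a filter at a mean FPKM of at least 1, and centring on genes with a mean of at least 5. FPKM are relative to each library's total, so abundant transcripts lower the others. Positions, lengths and GC contents came from GENCODE 29 (longest transcript, 99.8% of tested genes). For the GC correction, a lowess fit with a fraction of 0.3 (statsmodels 0.14.6) was subtracted. The folds were tested on simulated data. No test was run between groups, since 1 library each gives no spread; a rule of 2-fold size was used. Members and lists were chosen with earlier results of these data known. Genes were named by rule: the 9 members, ATOH8, every tested list gene at least 2-fold apart (up to 4 per list by size otherwise), and the 3 genes nearest to the highest and lowest member. Some list genes are not reported here and enter no list count. YBX3, ZEB1, list genes below the filter, markers and locus neighbours were named after their values were seen. Alternatives were other pseudocounts, filters and scalings, the highest row of a shared symbol, and the GC correction.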

Additional observations from a re-analysis of the deposited data

How the results depend on the processing

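CLDN2, CLDN4 and TJP3 stayed at least 2-fold higher under each alternative that gave them a value, with log2 folds of 2.57 to 2.99, 1.20 to 3.38 and 1.21 to 2.90. CLDN1 and TJP1 stayed on the lower side under each alternative run, at -1.17 to -0.40 and -0.81 to -0.34. With the FPKM as deposited, 1 member (CLDN1) was at least 2-fold lower, and CLDN3 and the median of the 9 were at -0.18. By that setting 6 other genes, from the 5 lists, were higher. TPM scaling gave 1 lower member and -0.25 for CLDN3 and the median. Without mitochondrial genes CLDN3 and the median were at -0.21, and with upper quartile scaling at -0.084. A pseudocount of 0.1 put CLDN3 at -0.17 and the median at -0.16. A pseudocount of 5 left 4 other genes higher and 0 lower. A filter at a mean FPKM of 5 kept 5 members, of which 1 was higher, with a median of -0.46 (a value of TJP1), and 6 higher other genes. The GC correction put CLDN3 at -0.54, CLDN12 at 0.49 and OCLN at 0.024, with 0 other genes lower. The filters and the pseudocount change these counts by construction, and for the rest the cause was not tested. No paired analysis was possible because each group has 1 library. The depth is not given, so no counting error could be attached to the low levels of CLDN3, CLDN4 and CLDN7.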

Other observations

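Some junction genes below a mean of 1 FPKM were listed at different levels. MARVELD3, which encodes a relative of occludin, was at 0.265 FPKM with the vector and at 0.870 FPKM with ATOH8, and it was marked up in the authors' deposited table (q = 0.0258). CLDN9 was at 0.0150 and 0.358 FPKM, while its neighbour CLDN6 was at 0.183 and 0.0637 FPKM. JAM2, for the adhesion molecule JAM-B, was at 0.00873 and 0.125 FPKM. CLDN16, which lies beside CLDN1, was at 0.130 and 0.0340 FPKM. Its log2 fold relative to the median gene was 0.23, whereas that of CLDN1 was -0.81. CLDN18, whose lung form marks alveolar epithelium, was near 0 in both libraries, at 0.0584 and 0.0555 FPKM. CLDN5 and CLDN10 were listed in the vector file only and CLDN14 and CLDN19 in the ATOH8 file only, each below 0.2 FPKM. At such levels, and without a read depth, the data do not tell a difference from counting error.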
